A study of Mus musculus with 14 samples.

Results

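Of 102165 distal accessible regions in mouse embryonic stem (ES) cells carrying an inducible GATA6 transgene, 5155 (5.05%) were first called at 4 h or 8 h after induction and were no longer called at 48 h. They were chosen from the ATAC-seq peak lists of 14 libraries. Autosomal peaks sharing 1 bp or more were joined into 121891 regions, and a region was called in a library when one of its peaks overlapped it. A transient region had its midpoint over 1 kb from every protein-coding transcription start site (TSS), was called in no 0 h and no 48 h library, and was first called in both libraries of a time point at 4 h (2945 regions) or at 8 h (2210 regions). The calls at 0, 2, 4, 8 and 48 h therefore chose the regions and are given only as a description, except the 8 h calls of those that started at 4 h. The calls at 16 h and 24 h and the DNA sequence were not used by the choice.

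ATAC-seq marks open chromatin by letting a transposase insert adapters into accessible DNA. The cells were KH2 ES cells, labelled C57BL/6, in which a tetracycline-responsive element drives GATA6 and the fluorescent protein DsRed2 from a single-copy transgene. Cells at 0 h were grown in 2i medium with LIF and received no doxycycline (Dox). All induced cells were in serum and LIF with Dox at 1 µg/mL. Those taken at 2, 4 and 8 h had Dox throughout, and those taken at 16, 24 and 48 h had it for 12 h and then serum medium without it. The change of medium coincided with induction in every induced library, so that the effects of the medium and of GATA6 cannot be told apart. Withdrawal of Dox likewise fell between 8 h and 16 h. Each time point had 2 libraries of 50000 cells, described as independent duplicates, with 55588 to 65073 peaks per library. The lists give no read counts, and read numbers recorded elsewhere were not used here. In such bulk libraries a region open in fewer cells and one less open in every cell cannot be told apart.

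GATA6 is a zinc-finger transcription factor that binds the motif AGATAA and its close forms. It specifies primitive endoderm (PrE), the extra-embryonic lineage that segregates from the epiblast (Epi) in the blastocyst, and it acts largely through distal cis-regulatory elements (CREs). AP-1 factors are dimers of Fos and Jun proteins that bind TGACTCA or TGAGTCA and respond quickly to serum and growth factors. The promoters of the ES cell genes Pou5f1, Sox2 and Esrrb were called in all 14 libraries, but so were those of the PrE genes Gata6, Sox17 and Pdgfra, of the trophectoderm genes Cdx2 and Eomes and of the neural gene Pax6. Those of the PrE gene Sox7 and the trophectoderm gene Elf5 were called in 13 libraries, and that of the PrE gene Gata4 in 12. That of the neural gene Neurod1 was called in 6, among them 1 of 0 h and none of 48 h. Calls at most of these promoters therefore did not separate the cell types. The Nanog promoter was called in both libraries of 0, 4 and 16 h, in 1 of 2 h and 1 of 24 h, and in none of 8 h or 48 h.

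The regions themselves are shown first, because several comparisons turn on the motifs in them. The central 200 bp is given for 7 of the regions with the highest peak scores at their start, with at most 1 region per gene and each named by its nearest gene. All are from the plus strand of GRCm38, 5′ to 3′, and capitals mark AP-1 motifs and GATA motifs, the latter being the letters GATA after A or T and before A or G, on either strand. The first 4 started at 4 h and the last 3 at 8 h.
Vstm5 region, chr9:15249583-15249782: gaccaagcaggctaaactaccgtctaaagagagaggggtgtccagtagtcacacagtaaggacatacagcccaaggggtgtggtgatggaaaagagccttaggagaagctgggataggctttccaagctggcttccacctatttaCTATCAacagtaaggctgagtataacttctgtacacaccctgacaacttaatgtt
Gramd1b region, chr9:40312878-40313077: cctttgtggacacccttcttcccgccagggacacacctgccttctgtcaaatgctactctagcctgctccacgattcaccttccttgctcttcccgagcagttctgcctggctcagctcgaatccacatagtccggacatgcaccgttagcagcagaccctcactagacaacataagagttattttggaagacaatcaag
Als2cl region, chr9:110883469-110883668: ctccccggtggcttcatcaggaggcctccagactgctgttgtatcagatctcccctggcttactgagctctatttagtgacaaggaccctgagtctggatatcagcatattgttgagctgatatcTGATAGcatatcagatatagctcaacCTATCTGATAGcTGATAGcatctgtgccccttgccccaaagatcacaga
Mast2 region, chr4:116413085-116413284: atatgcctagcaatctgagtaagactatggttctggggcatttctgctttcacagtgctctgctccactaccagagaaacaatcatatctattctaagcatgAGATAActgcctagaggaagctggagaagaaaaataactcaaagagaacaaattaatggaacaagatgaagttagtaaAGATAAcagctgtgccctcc
Glipr1 region, chr10:112027779-112027978: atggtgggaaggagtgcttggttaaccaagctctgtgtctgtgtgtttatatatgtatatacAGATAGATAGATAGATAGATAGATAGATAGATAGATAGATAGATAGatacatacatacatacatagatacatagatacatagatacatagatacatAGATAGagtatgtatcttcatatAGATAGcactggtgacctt
Ap1s3 region, chr1:79687166-79687365: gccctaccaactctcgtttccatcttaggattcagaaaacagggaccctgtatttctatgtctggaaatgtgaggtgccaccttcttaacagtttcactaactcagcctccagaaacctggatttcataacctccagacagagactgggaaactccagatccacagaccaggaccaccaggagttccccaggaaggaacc
Cfap300 region, chr9:8034109-8034308: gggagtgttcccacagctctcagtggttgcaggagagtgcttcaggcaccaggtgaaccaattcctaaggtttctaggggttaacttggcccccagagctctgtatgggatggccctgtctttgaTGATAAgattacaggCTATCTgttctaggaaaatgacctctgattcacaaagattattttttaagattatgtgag

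Als2cl held 4 GATA motifs and Mast2 held 2, Vstm5 held 1, and Gramd1b held none. The 13 overlapping motifs of Glipr1 lay mostly in 1 tandem repeat, Cfap300 held 2, and Ap1s3 held none. In the reference, 70.5% of the Glipr1 window was masked as repeat, against 15.0% in Cfap300 and 0% in Ap1s3. The Gle1, Zfp239 and Dtnb regions were also among the 5 of highest score at their start and are not printed. None of them held a GATA motif in the central 200 bp. A strong peak score was thus found with several motifs and with none.

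The next 4 windows were picked after their values were seen, to show what the comparisons below turn on. Gpr139 and Fgf4 combined GATA and AP-1 motifs and had their last calls at 4 h. Pdgfra and Foxa2 are PrE genes whose region held 3 GATA motifs and started at 8 h.
Gpr139 region, chr7:119196331-119196530: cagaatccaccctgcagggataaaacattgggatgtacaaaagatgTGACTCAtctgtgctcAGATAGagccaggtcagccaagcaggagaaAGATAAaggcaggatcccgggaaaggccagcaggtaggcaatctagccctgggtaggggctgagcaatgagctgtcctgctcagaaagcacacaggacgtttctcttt
Fgf4 region, chr7:144853598-144853797: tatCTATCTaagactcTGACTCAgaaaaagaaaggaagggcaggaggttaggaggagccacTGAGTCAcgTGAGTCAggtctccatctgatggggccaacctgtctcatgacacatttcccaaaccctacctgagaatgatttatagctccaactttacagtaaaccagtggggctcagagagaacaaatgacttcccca
Pdgfra region, chr5:75146623-75146822: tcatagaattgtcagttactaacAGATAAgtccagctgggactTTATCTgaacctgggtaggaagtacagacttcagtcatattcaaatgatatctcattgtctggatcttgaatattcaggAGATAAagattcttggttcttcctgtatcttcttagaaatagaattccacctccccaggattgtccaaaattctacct
Foxa2 region, chr2:148013095-148013294: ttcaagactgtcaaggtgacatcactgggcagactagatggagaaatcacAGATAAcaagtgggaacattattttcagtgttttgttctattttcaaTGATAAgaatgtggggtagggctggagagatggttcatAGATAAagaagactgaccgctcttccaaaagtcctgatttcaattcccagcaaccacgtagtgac

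Transient regions were short-lived by the choice, which did not use their calls at 16 h and 24 h. It did require a start at 4 h or 8 h and no call at 48 h. Its part in a lower share at 24 h than at 16 h was not tested. At 16 h they were called in 47.2% and 53.7% of cases in the 2 libraries, giving 50.5% ± 4.57 (SD, n = 2). At 24 h the 2 libraries gave 20.0% and 21.5%, or 20.7% ± 1.06 (SD, n = 2). The groups did not overlap, and the difference of 29.7 percentage points was larger than both SDs. The exact two-sided permutation test over these 4 libraries gave p = 0.333, the smallest value that 2 libraries against 2 allow. Read numbers recorded outside the peak lists were higher in both 16 h libraries than in both 24 h libraries, and their part in the difference was not tested. At 16 h, 2147 transient regions (41.6%) were called in both libraries, against 36.8% of all distal regions. At 24 h, 720 (13.97%) were called in both, against 30.4% of all distal regions.

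**Figure D1:**
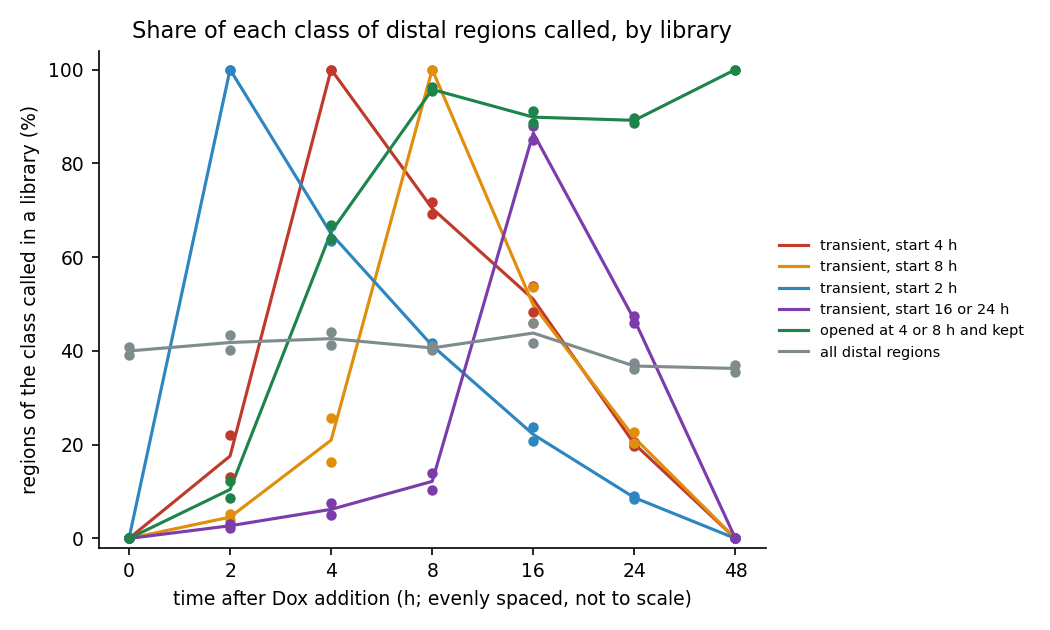
Share of each class of distal regions called in each library (y axis, percent) by time after Dox addition (x axis, h, evenly spaced); points are single libraries and lines join the means of the 2 libraries. Transient regions that started at 4 h and at 8 h were called in about the same share at 16 h and at 24 h, while regions opened at 4 or 8 h and kept to 48 h were called in 89.8% and 89.2% at these times. Values of 0% and 100% at the time points that defined a class follow from its definition.

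The later calls of the 2 starts were compared next. Regions that started at 4 h were called in 51.0% ± 3.94 of cases at 16 h, against 20.2% ± 0.624 at 24 h (SD, n = 2). Those that started at 8 h were called in 49.8% ± 5.41 and 21.5% ± 1.63 (SD, n = 2). At 16 h the 2 starts differed by less than the SD of either. At 24 h regions that started at 8 h were higher by more than the SD of the 4 h starts but less than their own SD. Of the regions that started at 4 h, 71.6% and 69.1% were called in the 8 h libraries, or 70.4% ± 1.80 (SD, n = 2). Both 8 h libraries called 1780 of them (60.4%), against 33.5% of all distal regions.

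Other classes of distal regions were called in other shares over the same hours. A total of 3584 regions opened likewise at 4 or 8 h but, as their choice required, were called in both 48 h libraries. These kept regions were called in 89.8% ± 1.82 of cases at 16 h, against 89.2% ± 0.730 at 24 h (SD, n = 2). The 7738 transient regions that started at 2 h were called in 22.2% ± 2.10 and 8.70% ± 0.393 (SD, n = 2 each). The 3286 that started at 16 or 24 h fell from 86.4% ± 2.17 to 46.6% ± 1.10 (SD, n = 2 each), but there the calls at these times chose the regions. Over all distal regions the shares were 43.8% ± 3.05 and 36.8% ± 0.921 (SD, n = 2 each).

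A call in both 16 h libraries and in neither 24 h library was found for 1029 transient regions (20.0%). This compares with 6.82% of all distal regions and 9.03% of the transient regions that started at 2 h. Among regions called in both 16 h libraries, however, these were 1029 of 2147, against 699 of 1387 for a start at 2 h. The 2 classes were thus similar in this respect. The reverse, neither 16 h library and both 24 h libraries, was found for 29 (0.563%), against 2.39% of all distal regions.

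Individual regions took many courses between these limits. The most frequent was a call in both 8 h libraries and in no other, seen in 491 regions (9.52%). A call in both libraries of 4, 8 and 16 h but nowhere else was seen in 349 regions (6.77%), and in both libraries of 4 h and 8 h only in 262 (5.08%). A total of 337 regions (6.54%) were called in all 8 libraries from 4 h to 24 h, and 228 (4.42%) in the 2 libraries of 4 h alone. A single 2 h library called 1236 regions (24.0%), of which 1035 started at 4 h. The last call came at 4 h in 452 regions, at 8 h in 1537, at 16 h in 1749 and at 24 h in 1417.

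The deposited score ranks peaks within a list on a scale that is not stated, and it is given here as a percentile over the autosomal peaks of that library. Transient regions ranked low. Their called peaks had a median percentile of 27.3 ± 1.93 among the 4 h libraries and 34.0 ± 2.03 among those of 8 h, then 36.0 ± 1.53 at 16 h, and 23.3 ± 0.185 by 24 h (SD, n = 2 each). Kept regions ranked at 38.0 ± 0.866, 51.3 ± 2.03, 66.6 ± 2.09 and 62.5 ± 0.812 (SD, n = 2 each) at the same times. Regions called only in the 2 libraries of 4 h had a median percentile of 14.2 at their start, and those called in all 8 libraries from 4 h to 24 h had 40.7.

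The choice has sharp limits, and a region near a calling threshold can fall on either side of them. The nearest transient region lay 1010 bp from a TSS and the farthest region left out by the distance limit 999 bp, with 94 transient regions at up to 1500 bp and 93 regions left out between 500 bp and the limit. A single 48 h call alone kept out 913 distal regions that otherwise met the rule, and a single 0 h call alone kept out 771. The requirement of both libraries at the start weighed most. Without the first or the second 4 h library, 5525 or 4628 regions started at 4 h, and without the first or the second 8 h library, 4071 or 4433 started at 8 h. On the X chromosome, which the choice did not use, 144 of 2066 distal regions met the same rule.

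Regions were chosen again from the 7 libraries of 1 replicate number and read in the 7 libraries of the other. The regions were still those merged from all 14 lists, and the same time points were read. Calls that repeat between duplicates therefore give high shares at 4 h and 8 h and low ones at 0 h and 48 h. Replicate 1 gave 9357 regions. In the replicate 2 libraries 8.55% of them were called at 0 h, then 15.8% by 2 h, 43.9% by 4 h and 51.6% by 8 h, and afterwards 44.9%, 21.9% and 9.29% at 16, 24 and 48 h. The share was lowest at the ends of the series and highest at 8 h, with 16 h at the level of 4 h. Replicate 2 gave 8678 regions. In the replicate 1 libraries 6.15% of them were called at 0 h, then 10.2% by 2 h, 36.5% by 4 h and 53.3% by 8 h, and afterwards 37.6%, 18.9% and 7.39% at 16, 24 and 48 h. Over all distal regions the share ranged from 35.4% to 46.0% across the 14 libraries.

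The mean over 4 h and 8 h exceeded that over the other 5 time points by 27.7 and by 28.9 percentage points in the 2 directions. The exact one-sided permutation test gave p = 0.0952 in each, with 21 arrangements and a smallest possible p of 0.0476, so the contrast did not pass the threshold. Because the rule set these time points, the test cannot tell a transient course from the repeat of calls between duplicates. The 16 h library was called in a larger share than the 4 h library in both directions. With only the 50000 highest-scoring peaks of each library, both tests gave an exact p of 0.0476, one-sided. Of the regions chosen on replicate 1, 50.1% were among the 5155, and of those chosen on replicate 2, 50.6%.

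GATA motifs were frequent in transient regions. The motif was found in the central 200 bp of 3814 transient regions (74.0%), against 39.5% of all distal regions. It was in 73.0% of those that started at 4 h and in 75.3% of those that started at 8 h. Among transient regions that started at 2 h it was in 41.8%, among those that started at 16 or 24 h in 50.5%, and among kept regions in 71.1%. A control motif with the same letters in another order (AGTA after A or T and before A or G) was in 23.3% of transient regions and 22.8% of all distal regions.

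Regions chosen per replicate number gave the same picture at lower levels. The GATA share was 64.2% in both sets, against 40.2% in both for a start at 2 h, and 62.5% and 63.0% for kept regions. These sets include regions called in only 1 of the 2 libraries, and they share regions with each other, so that their SD (0.0173 percentage points, n = 2) understates the error of the share. The difference of 34.5 percentage points from all distal regions was larger than the change of 9.74 points between the 2 ways of choosing. Between transient and kept regions the difference was 2.84 points. It was 1.75 and 1.26 points in the sets chosen per replicate number, where the share of kept regions was lower too. The change of 9.74 points therefore does not measure the error of this difference, which was not tested.

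**Figure D2:**
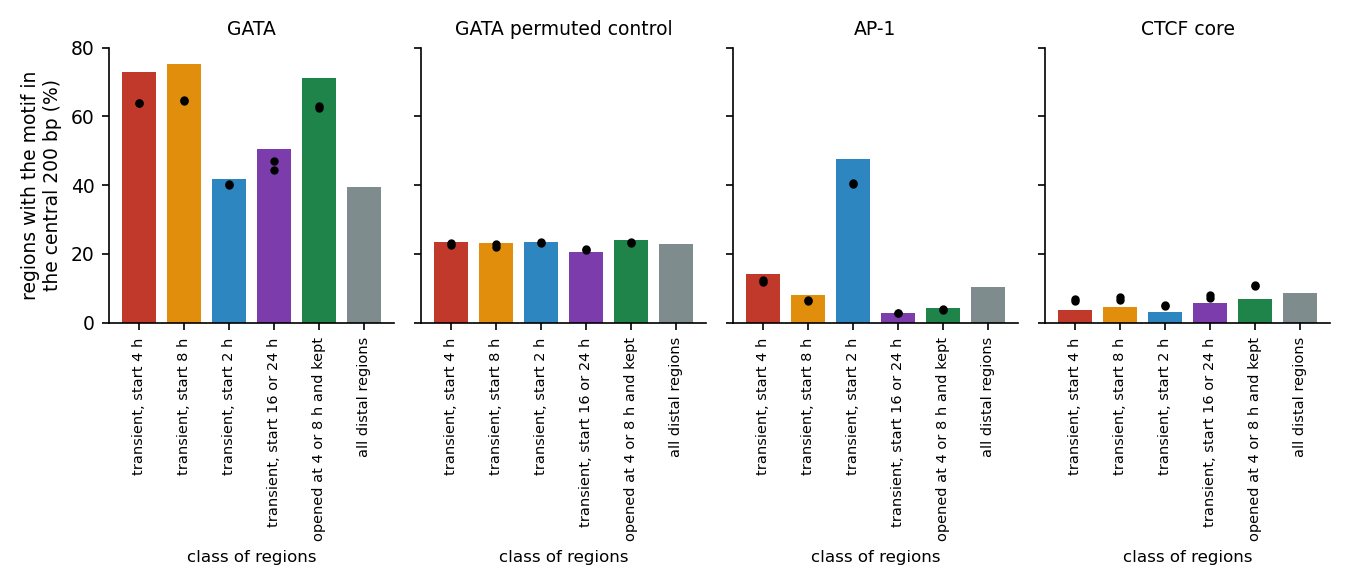
Share of regions with each motif in the central 200 bp (y axis, percent) in 6 classes of distal regions (x axis); bars give the regions called in both libraries and black points the 2 sets chosen on 1 replicate number each. The GATA bars stand at 73.0% and 75.3% for transient regions of the 2 starts, at 71.1% for kept regions and at 39.5% for all distal regions, while the permuted motif stays between 20.5% and 24.1% in all classes. AP-1 is highest in regions transient from 2 h, at 47.5%.

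Base composition moved with the motif. The median GC content of the windows was 47.5% in transient regions and 49.5% in all distal regions. Divided into 3 groups at the tertiles of GC content of all distal regions, the GATA share was 85.5% of 2551 transient regions with low GC content, 72.4% of 1506 in the middle and 49.3% of 1098 with high GC content. The same groups of all distal regions gave 54.5%, 39.7% and 23.7%. The share was higher in transient regions in all 3 groups.

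Motifs were also more numerous and central. At least 2 GATA motifs, overlapping ones counted singly, were present in 39.8% of transient regions, 39.9% of kept regions, 12.0% of regions transient from 2 h and 13.3% of all distal regions. In 107 transient regions (2.08%) there were 5 or more, up to 22, as in the tandem repeat of Glipr1 printed above. Per 1000 transient regions there were 817 GATA sites in the 100 bp around the midpoint and 446 per 100 bp beyond 100 bp from it, a ratio of 1.83. The ratio was 1.90 in kept regions, 1.48 over all distal regions and 0.856 for the permuted motif in transient regions. All 4 forms of the motif were more frequent than over all distal regions. AGATAA was in 49.7% against 19.3%, TGATAA in 26.0% against 12.1%, AGATAG in 21.1% against 11.6% and TGATAG in 11.3% against 7.75%.

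**Figure D3:**
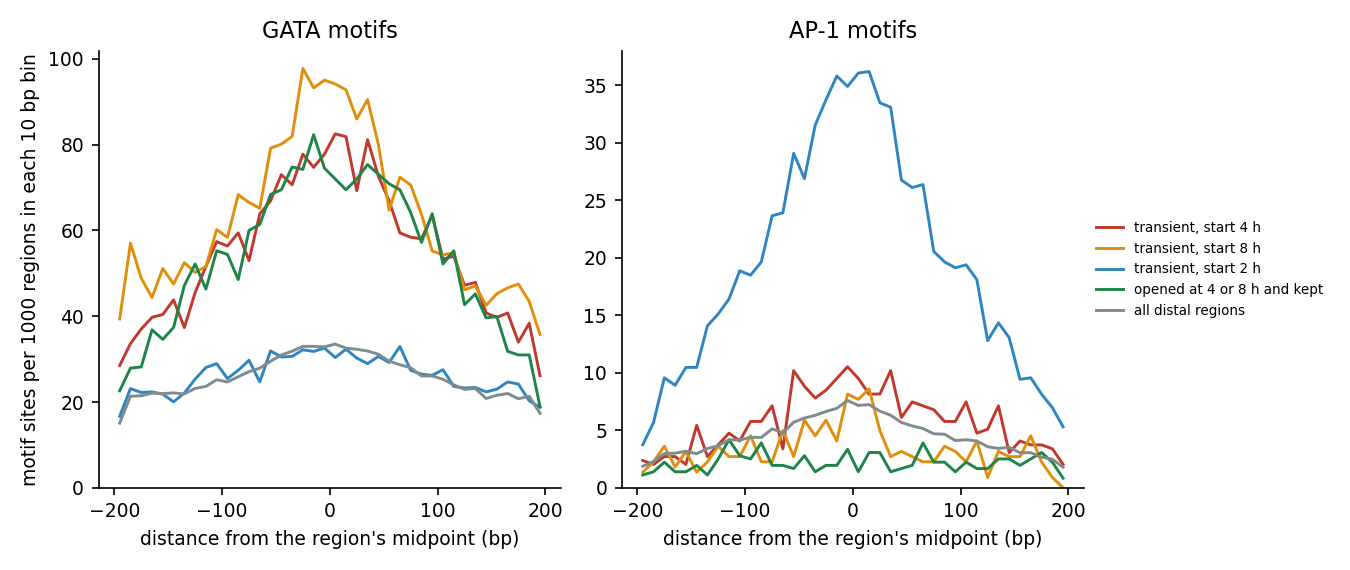
Motif sites per 1000 regions in 10 bp bins (y axis) by distance from the region's midpoint (x axis, bp) for GATA (left) and AP-1 (right) in 5 classes of distal regions, with separate y scales. GATA sites of transient regions rise towards the midpoint as in kept regions, and AP-1 sites do so most in regions transient from 2 h, which had 328 per 1000 regions in the central 100 bp.

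AP-1 motifs differed between the starts. They were in 11.5% of transient regions, close to the 10.4% of all distal regions. The share was 14.2% in regions that started at 4 h and 7.96% in those that started at 8 h, against 47.5% in transient regions that started at 2 h and 2.95% in those that started at 16 or 24 h. Regions chosen per replicate number gave a difference between the 4 h and 8 h starts of 5.90 and 5.49 percentage points, with shares of 12.1% ± 0.393 and 6.41% ± 0.0988 (SD, n = 2 each). Kept regions had 4.38%. A GATA motif without AP-1 was in 65.9% of transient regions, both in 8.11%, AP-1 alone in 3.39% and neither in 22.6%. For a start at 2 h the same shares were 25.0%, 16.8%, 30.8% and 27.5%.

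Of the other motifs sought, CTCF core motifs, the mark of insulator sites, were in 4.05% of transient regions, 6.95% of kept regions and 8.71% of all distal regions. The sets chosen per replicate number gave 6.86% and 6.64% for transient regions and 10.7% and 10.9% for kept regions. SOX motifs (AACAAT) were in 9.68%, against 13.3% of kept regions and 12.2% of all distal regions, and FOX motifs (TGTTTAC) in 2.42%, against 4.30% and 3.43%. KLF motifs (GGGNGTGG) were in 13.2% of transient regions, close to the 14.2% of all distal regions, and in 21.6% of those that started at 16 or 24 h. E-box motifs (CAGGTG) were in 16.9%, TEAD motifs (ACATTCC) in 6.40%, OTX motifs (GGATTA) in 7.24%, TFAP2 motifs (GCCNNNGGC) in 5.53% and TCF/LEF motifs (CTTTGAT) in 4.07%, each within 1.18 percentage points of all distal regions. The POU octamer (ATGCAAAT), ESRR/NR5A (CAAGGTCA), STAT (TTCCNGGAA), SRF, ETS (CCGGAAGT), EGR (GCGNGGGCG) and HNF1 motifs were each in under 3% of transient regions and of all distal regions. Matches describe letters in the window and not binding.

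Motif content also varied with how long a transient region was called. Among regions that started at 4 h, the GATA motif was in 78.1% and 78.6% of those called in the 2 libraries of 8 h and in 60.1% and 60.4% of those not called there. AP-1 went the other way, with 11.1% in both libraries among called regions and 21.8% and 21.1% among the others. Among all transient regions the AP-1 share was 4.97% and 5.31% of those called in the 16 h libraries and 17.4% and 18.7% of those not called. At 24 h it was 3.98% and 3.70% of called regions and 13.4% and 13.6% of the others. The direction was the same in the 6 libraries of 8, 16 and 24 h, which split overlapping sets of regions. There the difference of 9.40 to 13.4 percentage points was larger than that between libraries of a time point, at most 0.990. At 2 h it was reversed, with AP-1 in 19.9% and 23.2% of called regions and 10.7% and 9.46% of the others.

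For GATA the difference was largest at 8 h. Among regions that started at 4 h, the called ones exceeded the others by 17.98 and 18.18 percentage points there. Among all transient regions the excess was 5.72 and 6.01 points at 16 h, and the 2 libraries of 24 h differed in sign, at -3.28 and 0.342. Calls also varied with the number of motifs. With 0, 1, 2 and 3 or more GATA motifs, regions that started at 4 h were called at 8 h in 56.4% ± 2.40, 69.0% ± 2.10, 78.8% ± 0.800 and 86.8% ± 1.60 (SD, n = 2 each). At 24 h the same regions were called in 19.3% ± 1.69, 21.005% ± 0.880, 20.6% ± 2.30 and 18.97% ± 1.60 (SD, n = 2 each), with no order beyond the spread between libraries. Regions that started at 8 h gave 25.0% ± 1.17, 27.3% ± 2.27, 18.3% ± 0.125 and 10.2% ± 3.71 at 24 h (SD, n = 2 each), lower with 3 or more motifs than without, and the difference between the starts was not tested. At 16 h regions that started at 4 h were called in 43.1% ± 4.18, 50.8% ± 3.72, 56.4% ± 2.40 and 57.8% ± 6.75 (SD, n = 2 each). These were higher with 3 or more motifs than without. Those that started at 8 h gave 47.4% ± 4.66, 54.7% ± 5.52, 50.7% ± 6.496 and 42.4% ± 4.64 (SD, n = 2 each). These were highest with 1 motif and lowest with 3 or more. Over both starts the 4 values at 16 h lay between 44.9% and 53.9%, with SDs of 4.22 to 5.72. The score moved with the motif number as well. The median percentile at the start was 22.7 without a GATA motif and 32.8 with 3 or more, and its part in these results was not tested.

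**Figure D4:**
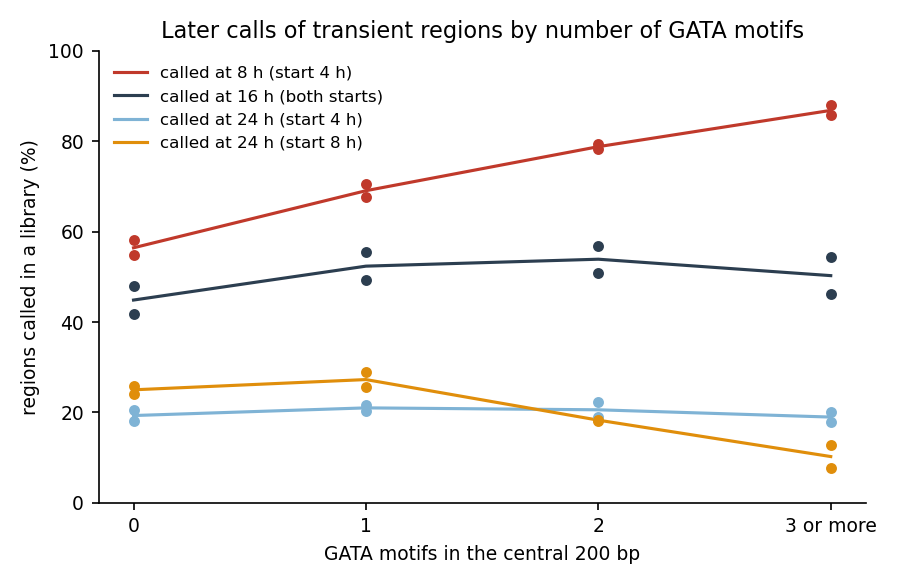
Share of transient regions called in a library (y axis, percent) by the number of GATA motifs in the central 200 bp (x axis); points are single libraries and lines join the means of 2 libraries. For regions that started at 4 h, the share called at 8 h rises from 56.4% to 86.8% while the share called at 24 h stays between 18.97% and 21.005%; for those that started at 8 h, the share called at 24 h is 25.0% without a motif and 10.2% with 3 or more.

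The shortest courses at the 2 starts differed in sequence. Of the 228 regions called only in the libraries of 4 h, 61.8% held a GATA motif and 20.6% an AP-1 motif. Of the 491 called only in the libraries of 8 h, the shares were 77.6% and 7.33%. The 337 called in all 8 libraries from 4 h to 24 h had 78.6% and 2.97%. A 2 h call in 1 library went with less GATA (64.7% against 76.9%) and more AP-1 (21.9% against 8.22%) than no 2 h call.

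In position the transient regions lay somewhat farther from genes than kept regions and all distal regions. Their median distance to the nearest TSS was 28610 bp, against 22848.5 bp for kept regions and 24041 bp for all distal regions. Transient regions that started at 2 h lay nearly as far, at 27126.5 bp. Introns held 2453 (47.6%), intergenic sequence 2544 (49.4%) and exons 158 (3.06%), against 47.3%, 48.3% and 4.35% of all distal regions. The median width was 462 bp, against 569 bp for kept regions, a measure that moves with the number of libraries merged. More than 50% of the window was masked as repeat in 5.45%, against 5.41% of all distal regions. The chromosomes held from 4.40% to 5.63% of their distal regions as transient regions.

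The neighbourhood was compared next. Another region of the same kind lay within 10 kb of 10.7% of transient regions, against 8.28% of all distal regions. A region gained by 48 h, called in both 48 h libraries and in no 0 h library, lay within 10 kb of 22.2%, against 33.5% of kept regions and 26.2% of all distal regions. For starts at 4 h and 8 h these shares were 19.8% and 25.3%. A region called in both 0 h libraries lay within 10 kb of 46.8%, against 51.3% of all distal regions.

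Within 50 kb of a TSS there were 3259 transient regions (63.2%), which were assigned to 2704 protein-coding genes, or 13.01% of the 20780 on autosomes. Of these genes 2247 had 1 region, 373 had 2 and 84 had 3 or more. Nearest genes are a label of position and not evidence of control.

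PrE genes took about the same share of transient regions as of other distal regions, and a larger share of kept regions. The study's list of 579 PrE genes, drawn from single-cell data of blastocysts, took 150 of the 3259 assigned transient regions (4.60%), against 4.84% of all assigned distal regions. It took 228 of the assigned kept regions (8.93%). The sets chosen per replicate number gave 4.38% and 4.13% for transient regions and 7.45% and 8.03% for kept regions. The study's list of 221 Epi genes took 78 transient regions (2.39%), against 2.36% of all assigned distal regions and 1.41% of kept ones. Counted by gene, 113 of 570 PrE genes (19.8%) and 62 of 218 Epi genes (28.4%) on autosomes had a transient region. Of all autosomal protein-coding genes, 13.01% had one. Genes of both lists also had any distal region more often, in 88.1% and 92.2%, against 71.5% of all these genes. The part of this in the higher gene shares was not tested. The PrE genes with most were Col4a1 (type IV collagen) and the Hippo pathway factor gene Tead1 with 4 each, and B4galt6, Eif4g3, Gramd1b, Pofut2 and Runx1 with 3 each. The Epi genes with most were Ctbp2, Nav2, Tnk2 and Ttc39b with 3 each.

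Of a short list of 10 PrE genes, mainly of transcription factors, 5 had a transient region, with 6 regions in all. This was 0.184% of assigned transient regions, against 0.169% of all assigned distal regions and 0.666% of kept ones (17 regions at 8 genes). Gata4, a GATA factor that acts with GATA6 in PrE, had 2. One lay in an intron at chr14:63221687-63222479, 8476 bp from the nearest TSS. It was called in 1 library of 2 h and in both of 4, 8, 16 and 24 h, at percentiles of 71.5 and 74.0 at 4 h, 92.0 and 90.0 at 8 h, 82.0 and 77.8 at 16 h, and 46.7 and 37.0 at 24 h. Its rank was thus highest at 8 h and had dropped at 24 h in both libraries. The other, at chr14:63221487-63221627, was called in both libraries of 4 h and 8 h and in 1 of 16 h. Neither held a GATA motif in its central 200 bp.

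Foxa2, a forkhead factor gene of endoderm, had the intergenic region printed above, chr2:148013006-148013383, 32753 bp from the nearest TSS. It was called only at 8 h, at percentiles of 35.2 and 31.1. Sall4, a zinc-finger factor gene active in ES cells and PrE, had 1 region with 2 GATA motifs, called in both libraries of 4, 8 and 16 h. Gata6 itself had 1, called in 1 library of 4 h and both of 8 h. It overlapped 165 bp of Gata6 coding sequence, which the transgene also carries, so that reads of the transgene and of the endogenous gene cannot be told apart there.

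Pdgfra, the PDGF receptor gene that marks PrE, had the region printed above, chr5:75146609-75146836, 5569 bp from the nearest TSS. It was called at percentiles of 20.5 and 48.3 in the 8 h libraries, in neither 16 h library, and at 26.5 and 38.4 in the 24 h libraries. Such a gap at 16 h was rare, as given above for 29 regions.

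Of the 14 genes for PrE receptors and matrix, 10 had 15 transient regions in all. This was 0.460% of assigned transient regions, against 0.268% of all assigned distal regions and 0.509% of kept ones (13 regions at 9 genes). The sets chosen per replicate number gave 0.292% and 0.297%. Col4a1 had 4, of which 3 started at 8 h, and 1 of them held 12 GATA motifs. The genes of the endocytic receptors megalin and cubilin, Lrp2 and Cubn, had 2 each, and Dab2, their adaptor, had 1. The intronic region of Lrp2 was called at percentiles of 27.3 and 23.4 at 4 h and in neither library after that, whereas the region 16293 bp from its TSS was called in both libraries of 8 h and 16 h and in 1 of 24 h.

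Naive pluripotency genes also had transient regions. Of 15 on autosomes, 9 had 12 regions, or 0.368% of assigned transient regions, against 0.309% of all assigned distal regions and 0.235% of kept ones (6 regions at 6 genes). The sets chosen per replicate number gave 0.324% and 0.297%. Esrrb, Tbx3 and Tfcp2l1, transcription factor genes of the naive network, had 2 each. The intronic region of Tfcp2l1 at chr1:118649543-118650037 was called in all 8 libraries from 4 h to 24 h, at percentiles of 57.6 and 49.4 at 4 h, 91.6 and 83.7 at 8 h, 77.9 and 82.8 at 16 h, and 60.5 and 40.5 at 24 h. Its ranks peaked at 8 h, and it held no GATA motif. Fgf4, the gene of the Epi ligand that promotes PrE, had the region with 3 AP-1 motifs printed above, chr7:144853522-144853873. It was called in 1 library of 2 h, at percentiles of 1.87 and 26.2 in the libraries of 4 h, and in none later. Nanog and Pou5f1, named after their values were seen, had 1 region each, and both started at 8 h with 1 GATA motif.

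Signalling genes were read from 7 short lists, each given with its share of assigned regions. No region fell to any of the 11 immediate-early genes, which took 0.143% of all assigned distal regions, whereas transient regions that started at 2 h fell to 8 of them. The sets chosen per replicate number gave 0.0810% and 0.0524%. Of 16 FGF/ERK feedback genes, 3 had 1 region each (Dusp1, Fgfr1 and Spry4), against 10 for a start at 2 h. This was 0.0921% of assigned transient regions, against 0.255% of all assigned distal regions. Of 12 Wnt target genes only Axin2, a feedback inhibitor, had any, with 3 (0.0921% against 0.130%), compared with 9 genes for a start at 2 h. Of 11 AP-1 factor genes only Atf3 had any, with 2 (0.0614% against 0.0903%). Of 10 LIF and Jak/Stat genes Socs2 and Stat3 had 1 each (0.0614% against 0.172%). In the Nodal pathway the signal transducer Smad3 and the inhibitor Smad7 had 2 each, and Acvr1b and Foxh1 had 1 each (0.184% against 0.144%). In the BMP pathway Bmpr2 and Id3 had 2 each, and Id4 and Smad6 had 1 each (0.184% against 0.159%). These counts are small, and they were not tested.

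Of 16 SRF and actin cytoskeleton genes on autosomes, 6 had 7 regions, with 2 at the vinculin gene Vcl and 1 each at Amotl2, Ccn1 and Ccn2 (0.215% against 0.192% of all assigned distal regions). Of 11 trophectoderm factor genes, 6 had 1 each, among them Elf5, Krt18, Krt8 and Tead4 (0.184% against 0.159%). Of 13 formative and primed epiblast genes on autosomes, Dnmt3a, Grhl2, Otx2 and Zfp281 had 1 each (0.123% against 0.164%), and of 13 adhesion and mesenchymal genes Cdh1, Epcam, Ocln and Twist1 had 1 each (0.123% against 0.157%).

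The genes with most transient regions came from several processes. Plekha7, the gene of an adherens junction protein, had 5 of its 33 distal regions in the class. The others had 4 each, namely Acbd6, Aff4, Ank2, Arid3b, Col4a1, Dlc1, Epb41l1, Gm11077, Nedd4l, Rbfox1, Rbms1 and Tead1. At Aff4, a scaffold of transcription elongation complexes, these were 4 of only 6 distal regions. All 4 held a GATA motif and were called in both 16 h libraries. No kept region with a start at 4 h or 8 h was assigned to Aff4. At Rbfox1, a splicing factor gene, all 4 started at 4 h. At Plekha7 none of the 5 was called in both 16 h libraries.

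Regions with the highest scores at their start reached percentiles from 82.3 to 88.0 as means of the 2 libraries at 4 h, and from 75.6 to 82.4 at 8 h. The Als2cl region, chr9:110883278-110883859, in an intron 3232 bp from the nearest TSS, was called at percentiles of 83.8 and 86.4 at 4 h, 98.0 and 97.8 at 8 h and 85.0 and 92.7 at 16 h, and in no library of 24 h. It was among the highest ranked peaks of the 8 h lists and was not called 16 h later. The Tfcp2 region followed it, at 78.4 and 86.3, then 97.7 and 92.8, then 79.3 and 77.6, and no call at 24 h. The Met region, in an intron of the HGF receptor gene, fell faster, with 84.4 and 82.7 at 4 h, 29.8 in 1 library of 8 h and 33.3 in 1 library of 16 h.

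Gramd1b was called at 85.6 and 88.9 at 4 h and in 1 library of 24 h at 56.6. Vstm5 and Gle1 were called in both 24 h libraries, at 46.4 and 50.7 and at 63.1 and 68.2. Mast2 and Asah2 were called in both 16 h libraries and in no 24 h library. Thus 5 of these 8 regions had no call at 24 h.

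Among the 8 regions of highest score that started at 8 h, the Stard13 region had no earlier call and stood at 75.9 and 75.6 at 8 h, 76.4 and 81.3 at 16 h and 26.4 and 48.7 at 24 h. The other 7, near Glipr1, Ap1s3, Zfp239, Cfap300, Dtnb, Trip12 and Slc13a2, each had a call in 1 library of 4 h, at percentiles from 14.8 to 65.9. Their start at 8 h therefore rested on a missing call in the other 4 h library. All but Dtnb were called in both 16 h libraries.

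**Figure D5:**
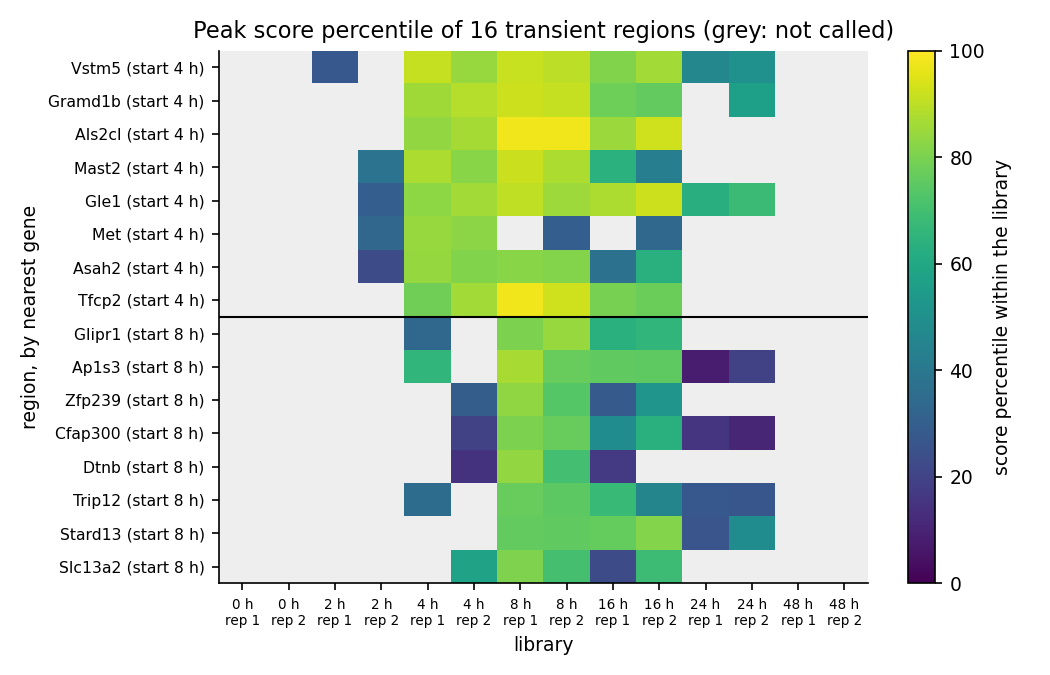
Score percentile within each library (colour) of the 8 regions with the highest mean percentile at each start (rows, named by nearest gene) in the 14 libraries (columns); grey marks no call. Ranks of the Als2cl region reach 98.0 and 97.8 at 8 h, and 7 of the 8 regions that started at 8 h had a call in 1 library of 4 h.

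The longest and shortest courses gave further contrasts. The regions called in all 8 libraries from 4 h to 24 h with the highest later ranks lay near Uck2, Gle1, Mxd3 and Gtf3c5. Uck2 rose from 72.0 and 77.0 at 4 h to 90.4 and 92.4 at 16 h and stood at 71.7 and 67.9 at 24 h. Mxd3 rose from 46.1 and 23.8 at 4 h to 85.5 and 82.4 at 16 h and stood at 73.7 and 69.4 at 24 h. Regions called only in the 2 libraries of 4 h ranked lower, the highest being near Cnot6 at 62.7 and 52.5, Gpr139 at 50.9 and 63.8, Nek7 at 60.8 and 53.3 and Evx2 at 46.9 and 45.3. Both Gpr139 and Nek7 held 2 GATA motifs and 1 AP-1 motif, while Cnot6 and Evx2 held neither motif. Regions called only in the 2 libraries of 8 h were highest near Zfp322a at 68.8 and 58.8, Usp8 at 52.0 and 65.0, Dgkg at 70.9 and 43.5 and Chst15 at 66.0 and 40.8. None of these 4 held an AP-1 motif, which was in 7.33% of all regions called only at 8 h and 10.4% of all distal regions.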

How the data were processed

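Chromatin accessibility was measured by ATAC-seq in 14 libraries, 2 at each of 7 time points, grouped by the time in their labels. The authors deposited 1 peak list per library from the ENCODE ATAC-seq pipeline, with peaks kept by an irreproducible discovery rate on pseudoreplicates and filtered against a blacklist, so that replicates were not pooled. Per the labels the builds were mm10 and GRCm38 and the notes name deepTools. Each deposited peak has 1 unnamed score on an unstated scale, which was used only to rank peaks within a list. A region without a call may be accessible below that library's threshold. No peak passed a chromosome end in GRCm38 (0 of 821472).

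Regions were annotated with GENCODE M21, using Python 3.11.15, numpy, pandas and scipy. Sequence and repeat masking came from the NCBI RefSeq copy of GRCm38. Coordinates count from 1. The sequence of 1 window is not reported here. Peaks overlapping by at least 1 bp were merged, and a region was called where a peak overlapped it. All 19 motifs were sought on both strands, and the SRF, HNF1 and CTCF core patterns are given by name. Regions were assigned to the nearest protein-coding TSS within 50 kb and counted for 16 gene lists. Libraries were the units of every test, and tests were exact permutations. No test was run over regions, and no p was adjusted. On simulated peaks, 100% of planted regions were put in their class (4000 regions).

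The regions, gene lists and motifs were chosen with earlier results of these data known. Named regions are the 8 with the highest mean score percentile at each start, 4 each of the longest course, only 4 h and only 8 h (at most 1 per gene, TSS within 50 kb, chromosome 18 left out), the genes with most regions, and for each list its genes with a region, or the 4 with most when over 5. Across regions, deviations of libraries with the same replicate number had correlations of -0.0156 to 0.0125 over 21 pairs of time points. Such correlations leave out the level of a whole library. Peak lists were longer for replicate 2 throughout, for example 65073 against 61857 peaks at 16 h. Its share of distal regions called was also higher, except at 8 h (40.2% against 41.1%). The correlations therefore cannot decide whether a block is needed. The main comparison has no block, and the result with one is given below. Of regions called in either library of a time point, 73.6% to 75.7% were called in both.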

Additional observations from a re-analysis of the deposited data

Results flagged for a closer look

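The X chromosome was left out of the choice of regions, and its peaks hold a signal of the same kind. By the same rule 144 of its 2066 distal regions (6.97%) were transient with a start at 4 h or 8 h, against 5.05% of autosomal distal regions. By that rule none of them was called at 0 h. The difference was not tested. Groups of 2 libraries were not searched for a library standing apart.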

How the results depend on the processing

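Alternatives were another peak number, overlap, merging distance and TSS rule, other motif windows, other assignment distances, a replicate block, and leaving out each library or replicate number in turn. No result was reversed. For values without a test, a move means more than 1 SD of the 2 replicate-number sets or libraries, which was below 0.02 percentage points for the GATA share, so that small changes count.

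With the 50000 highest-scoring peaks per library, the held-out differences were 32.6 and 34.4 percentage points and passed the threshold (exact one-sided permutation p = 0.0476 each, against p = 0.0952 with all peaks and with the other alternatives). As with all peaks, this contrast cannot tell a transient course from the repeat of calls between duplicates. With these peaks the share of regions from 4 h called at 8 h was 73.2%, the GATA share 74.9%, the median GC content 47.0%, and the PrE and Epi shares 4.24% and 2.33%. With 50% of the region covered they were 67.5% for 8 h calls, 72.8% for GATA and 2.33% for Epi. Merging within 100 bp gave 74.1% for GATA. Regions over 5 kb from a TSS gave 74.5% for GATA, 47.0% for GC content and 2.45% for Epi, and gene starts only gave 73.7% and 2.02% for GATA and Epi. The GATA share was 52.6% in the central 100 bp (24.4% of all distal regions), 88.0% in 400 bp (57.8%), 88.6% in whole regions (61.0%), 49.7% with AGATAA only and 75.5% around the best peak. Assignment within 10 kb gave PrE and Epi shares of 4.15% and 2.48%, and within 100 kb the Epi share was 2.48%. In alternatives chosen after seeing the data, regions without a 2 h call had a GATA share of 76.9% and those without masked repeats 74.4%.

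Leaving out libraries or a replicate number gave 4387 to 9357 regions in all, 2293 to 5525 from 4 h and 1642 to 4433 from 8 h. The 8 h calls of regions from 4 h ranged from 52.4% to 72.2%, the share called at 16 h from 39.4% to 53.7% and at 24 h from 17.1% to 24.5%, with differences of 18.98 to 33.0 points. The GATA share ranged from 64.2% to 75.9%, GC content from 47.0% to 48.5%, the PrE share from 4.13% to 4.68% and the Epi share from 2.20% to 2.40%. With the replicate block the differences between 16 h and 24 h were 27.3 and 32.2 points (mean 29.7, exact sign-flip permutation p = 0.5, two-sided, the smallest that 2 pairs allow), and the call was not changed. Read numbers were not used here, so a lost call may be a weak peak.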
